A study of Mus musculus with 12 samples.

Results

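The long noncoding RNAs described here were a list of 9 transcripts: the nuclear RNAs Malat1 and Neat1, the imprinted RNAs Meg3, Rian, Mirg, H19 and Kcnq1ot1, and the small nucleolar RNA (snoRNA) host genes Gas5 and Snhg1. They were found by gene symbol among the 53700 genes of the count table. Of the 9, 5 (Malat1, Neat1, Meg3, H19 and Gas5) matched an identifier of the counts through the tables used here, and all 5 passed the filter on low counts. Rian, Mirg, Kcnq1ot1 and Snhg1 matched none and were not analysed here.

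RNA was taken from whole hearts of 6 ac-WT mice (CYB5R3wt/wt) and 6 ac-CYB5R3–KO mice (CYB5R3fl/fl). Every mouse carried Myh6-CreERT2, a Cre recombinase active in cardiomyocytes only once tamoxifen is given, so both groups share the Cre and the drug. All were injected with tamoxifen at 33 mg/kg/d for 5 days, starting at 10 to 13 weeks of age, and hearts were collected 5 days after the injections. The deletion is aimed at cardiomyocytes, and the other cells of the heart keep the gene. Cyb5r3 itself, the enzyme that was deleted, lay between 81.9 and 185 CPM (reads of a gene scaled to the size of its library) in ac-WT hearts. Its range in the deleted hearts was 42.0 to 67.4 CPM, with no overlap. Its log2 fold change was -1.22 (edgeR quasi-likelihood test, adjusted p = 0.0450).

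Long noncoding RNAs act as RNA and code for no protein. Malat1 is a nuclear RNA of the speckles, bodies rich in splicing factors. Neat1 is the scaffold of the paraspeckles, which form around it close to the speckles. Meg3, Rian and Mirg are read in the same direction from the maternal chromosome of the Dlk1-Dio3 domain, and H19 from the maternal chromosome beside Igf2. Kcnq1ot1 is read from the paternal chromosome, within Kcnq1, and silences the neighbours of its domain. Gas5 and Snhg1 carry snoRNAs in their introns. The spliced RNA of Gas5 is short-lived because it is translated briefly and then removed by nonsense-mediated decay.

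In the NCBIM37 assembly Malat1 lies at chr19:5795690-5802671 and Neat1 at chr19:5824708-5845478, both on the minus strand and each annotated as a single exon, of 6982 and 20771 bases. Meg3 lies at chr12:110779211-110809936 on the plus strand, with 18089 exonic bases in 8 blocks. H19 occupies chr7:149761434-149764048 on the minus strand, with 2372 exonic bases in 4 blocks. Gas5 occupies chr1:162964553-162968670 on the plus strand, with 3760 exonic bases in 3 blocks. The start of Gas5 overlaps Zbtb37 on the opposite strand by 428 bases. Whether counting used the strand is not given in the sources used here. On the opposite strand of Meg3 and Malat1 the annotation has Gm17639, over 3096 bases, and Gm20417, over 988 bases, neither with a row of counts. Zbtb37 had 876 reads over all 12 hearts, against 1696 to 5156 reads per heart for Gas5.

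H19 and Meg3 are also hosts of microRNAs. The mature products of the precursor inside H19 (Mir675) and of Mir770 inside Meg3 are printed because the host RNAs were counted in every heart while the precursors were not. The sequences are those of RefSeq (GRCm38.p6), 5′ to 3′, with the seed (bases 2 to 8) in capitals.
mmu-miR-675-5p: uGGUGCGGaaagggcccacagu
mmu-miR-675-3p: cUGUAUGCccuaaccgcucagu
mmu-miR-770-5p: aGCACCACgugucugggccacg
mmu-miR-770-3p: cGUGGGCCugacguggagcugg
The 4 seeds differ from each other. Precursors of Mir675 (84 bases) and Mir770 (94 bases) had 0 reads in all 12 hearts, beside 514 to 3409 reads per heart for H19 and 313 to 1688 for Meg3. The same held more widely. Of the 40 microRNA and snoRNA genes annotated inside 6 of the listed RNAs that have a row of counts, 37 had no read in any heart and the 40 together had 4 reads. The 9 snoRNA genes inside Gas5 had 0 reads. These genes are 60 to 126 bases long and the reads were 75 bases, and the counts give no measure of the mature microRNAs or snoRNAs.

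RefSeq promoter windows (250 bases before to 50 after a start, GRCm38.p6) were found for 7 of the 9 RNAs, 9 windows in all, Gas5 and Meg3 having 2 each. The windows of Gas5 and Meg3 that hold the palindrome TGACGTCA, the full cyclic AMP response element (CRE), are printed with those letters in capitals. They are shown because Gas5 had the steadiest level of the RNAs measured while that of Meg3 varied from heart to heart. Meg3 spread 4.05-fold over ac-WT and 5.30-fold over ac-CYB5R3–KO hearts. The letters were picked after the windows had been read.
Gas5, chr1:161034916-161035215, plus strand: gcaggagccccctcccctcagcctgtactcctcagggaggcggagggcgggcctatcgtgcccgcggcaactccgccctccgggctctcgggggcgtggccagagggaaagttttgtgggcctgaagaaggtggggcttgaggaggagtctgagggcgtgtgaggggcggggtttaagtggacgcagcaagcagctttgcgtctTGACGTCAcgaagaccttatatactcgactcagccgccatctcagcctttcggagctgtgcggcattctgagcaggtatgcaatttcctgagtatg
Meg3, chr12:109540746-109541045, plus strand: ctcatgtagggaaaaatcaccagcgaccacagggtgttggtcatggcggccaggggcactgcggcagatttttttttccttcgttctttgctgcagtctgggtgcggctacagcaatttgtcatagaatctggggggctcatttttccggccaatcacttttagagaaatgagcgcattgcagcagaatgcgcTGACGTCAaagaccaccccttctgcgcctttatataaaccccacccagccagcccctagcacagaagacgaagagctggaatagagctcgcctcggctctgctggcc
The element begins 46 bases before the annotated start of Gas5 and 57 bases before that of Meg3. It was found in 2 of the 9 windows and in 1.79% of the 32851 windows of all genes. On either strand, TGACNNNGC, the antioxidant response element (ARE), was found in 1 of the 9 windows (Kcnq1ot1) and in 12.4% of all windows. ACGTG, the core of the hypoxia response element (HRE), was found in 3 of the 9 (Malat1, Kcnq1ot1 and Snhg1) and in 19.6% of all windows. In the Kcnq1ot1 window the ARE and HRE letters overlap. These matches are letters in a window and no measure of binding.

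The first question was how abundant the RNAs are in control hearts. Libraries held between 43393183 and 53754284 counted reads. By read number Neat1 ranked between 45 and 534 among the genes of a heart, Malat1 between 127 and 2609, Gas5 between 936 and 1777, H19 between 1356 and 6140 and Meg3 between 3382 and 10044. Levels of different genes are comparable only per length. Per kilobase of exon, Neat1 averaged 41.9 ± 32.0 CPM in ac-WT hearts (SD, n = 6), the 10th of 432 noncoding genes and rank 1074 of 15527 genes. Malat1 followed at 34.5 ± 35.7 CPM per kilobase, rank 1250. Gas5 stood at 16.6 ± 1.59, H19 at 13.6 ± 5.57 and Meg3 at 0.857 ± 0.488 CPM per kilobase, ranks 2136, 2485 and 11503. By this measure Meg3 was not abundant in these adult hearts: 25.9% of genes ranked below it. The length used was that of all annotated exons of a gene together, in the NCBIM37 annotation. It was 18089 bases for Meg3 and 3760 for Gas5, and the order of the RNAs depends on it. Which forms of each RNA the hearts carry was not measured.

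Neighbours in this order mostly did not differ beyond the spread between hearts. Neat1 exceeded Malat1 in 5 of 6 ac-WT hearts (exact sign-flip test of the log2 ratio per length, p = 0.375), Malat1 exceeded Gas5 in 4 of 6 (exact p = 0.469) and Gas5 exceeded H19 in 4 of 6 (exact p = 0.250). H19 exceeded Meg3 in 6 of 6 (exact p = 0.0312, the smallest p that 6 hearts allow). In ac-CYB5R3–KO hearts Neat1 exceeded Malat1 in 6 of 6 (exact p = 0.0312), and Malat1 exceeded Gas5 in 1 of 6 (exact p = 0.0625).

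**Figure D1:**
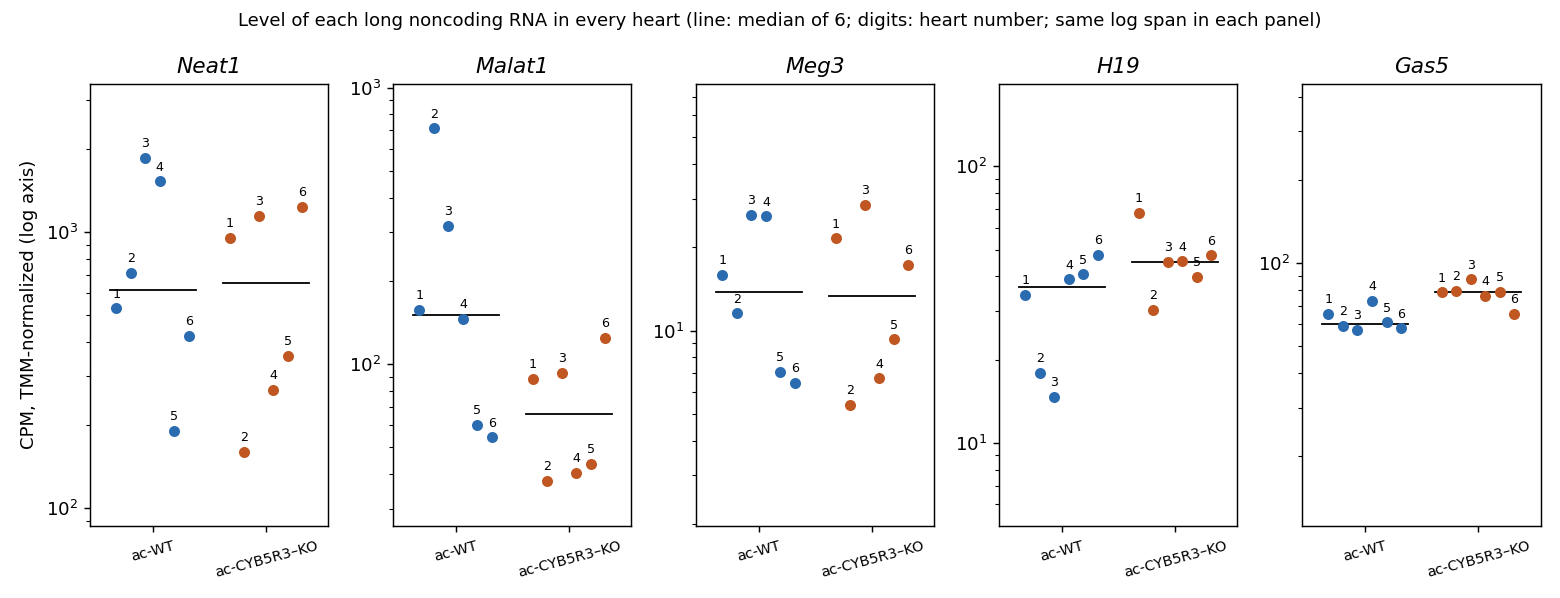
Level of each matched long noncoding RNA in every heart, in TMM-normalized CPM on a log axis that spans the same range in each panel, with ac-WT hearts in blue, ac-CYB5R3–KO hearts in orange, the heart number above each point and a line at the median of 6. Neat1 spreads 9.72-fold and Malat1 13.1-fold over ac-WT hearts, whereas Gas5 spreads 1.27-fold and sits higher in 5 of 6 ac-CYB5R3–KO hearts than in any ac-WT heart.

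The comparison of ac-CYB5R3–KO with ac-WT hearts asked which of these RNAs change early after loss of CYB5R3. Of the 5 RNAs, 2 passed an unadjusted p under 0.01 by edgeR: Gas5 was higher and Malat1 lower. Over all genes 4.59% passed (820 of 17847), 1.33% higher and 3.27% lower. At an unadjusted p under 0.05 the same 2 of the 5 passed, beside 14.6% of all genes (4.91% higher and 9.73% lower). At an adjusted p under 0.05 edgeR called 0 of the 5, beside 0.101% of all genes (0.0392% higher and 0.0616% lower), and DESeq2 called 1 of the 5, Gas5, beside 2.45% of all genes by that tool (437 of 17838, with 0.768% higher).

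Gas5 had the least spread of the 5 RNAs between hearts of a group, and its mean was 24.4% higher after deletion. In ac-WT hearts 1 to 6 it was at 65.7, 59.3, 57.3, 72.9, 61.0 and 58.0 CPM. In ac-CYB5R3–KO hearts 1 to 6 it was at 78.3, 79.5, 87.2, 76.0, 78.7 and 65.5 CPM. Only ac-CYB5R3–KO heart 6 lay within the ac-WT range, and 5 of 6 ac-CYB5R3–KO hearts lay above every ac-WT heart. The means were 62.3 ± 5.96 and 77.6 ± 7.03 CPM (SD, n = 6 each), with a log2 fold change of 0.31 and an SE of 0.10 (edgeR, adjusted p = 0.194). DESeq2 gave the same fold change with an adjusted p of 0.0312. The unadjusted p was 0.00525 by edgeR and 0.00649 by the two-sided exact permutation test over the 924 splits of the hearts. Without ac-WT hearts 2 and 3, whose libraries stand apart as described below, the log2 fold change was 0.28 (edgeR, adjusted p = 0.452). Markers of other cells also differed by genotype beside it. The 6 lymphocyte markers summed to 2.17 to 3.94 CPM in ac-WT and 6.31 to 16.4 CPM in ac-CYB5R3–KO hearts, and the 7 cartilage and airway markers to 7.41 to 60.2 and 70.2 to 139 CPM (exact permutation p = 0.00216 for each, the smallest p these hearts allow). The 3 matched red blood cell markers summed to 1581 ± 1544 and 4818 ± 4113 CPM (SD, n = 6 each, exact permutation p = 0.0433), and the 6 smooth muscle and pericyte markers to 412 ± 28.0 and 354 ± 40.1 CPM (exact permutation p = 0.0216). None of these markers was at 0 in either group, and their part in the level of Gas5 was not tested.

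After TMM normalization the spread of Gas5 was small for its level in ac-WT hearts. Its SD on the log2 scale was 0.13 in each group. Of the 2237 genes within 2-fold of its level, 7.11% had a smaller SD in ac-WT hearts and 37.5% in ac-CYB5R3–KO hearts. With total counts in place of TMM, Gas5 was at 58.2 ± 16.6 CPM in ac-WT and 86.4 ± 11.4 CPM in ac-CYB5R3–KO hearts (SD, n = 6 each). The genes most like it, by Pearson r of log2 CPM over the 12 hearts after the mean of each genotype was subtracted, were Orc6 (0.92), Olfr1033 (0.86) and Fzd8 (0.86), and 1 of 9938 genes of at least 5 CPM exceeded 0.9. All 3 had group means between 5.26 and 7.26 CPM.

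Other snoRNA host genes gave no call. Of 17 listed, 10 had a row of counts and 9 were tested. By edgeR and by DESeq2 alike, 0 of the 9 passed p under 0.01 and 0 passed p under 0.05. Of the 9, 6 had a positive and 3 a negative fold change, with a median of 0.12 beside -0.0074 for all genes (0.40 beside 0.26 with total counts in place of TMM). The 2 with the smallest p were Zfas1, at 22.8 ± 3.94 CPM in ac-WT hearts and 26.7 ± 6.68 CPM after deletion (log2 fold change 0.23, edgeR adjusted p = 0.538), and Snhg11, at 0.329 ± 0.202 and 0.586 ± 0.647 CPM (0.84, adjusted p = 0.597). Of 8 proteins that bind snoRNAs, Nop10, a subunit of the H/ACA particles, was lower, at 34.1 ± 6.51 against 26.4 ± 2.04 CPM (log2 fold change -0.37, edgeR adjusted p = 0.211, exact permutation p = 0.00649). That fold change was -0.17 without ac-WT hearts 2 and 3 and -0.054 with total counts. Of 10 nonsense-mediated decay factors 0 passed p under 0.05 by edgeR and 0 by DESeq2, with a median of 0.040. Smg6, an endonuclease of the pathway, was at 11.9 ± 1.68 and 13.2 ± 1.41 CPM (0.15, adjusted p = 0.551), and Smg1, its kinase, at 43.3 ± 19.8 and 35.1 ± 5.02 CPM (-0.30, or 0.041 with total counts, adjusted p = 0.551). Among 8 target genes of p53, 0 passed p under 0.01 by edgeR and by DESeq2, and 1 passed p under 0.05: Bbc3, which promotes cell death, at 4.06 ± 0.855 and 5.29 ± 0.772 CPM (0.38, edgeR adjusted p = 0.279).

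Malat1 had the largest fold change and rested on few hearts. In ac-WT hearts 1 to 6 it was at 157, 712, 316, 145, 60.2 and 54.3 CPM. In ac-CYB5R3–KO hearts 1 to 6 it was at 88.5, 37.7, 92.7, 40.5, 43.4 and 124 CPM. The groups overlapped: 4 ac-WT hearts lay above every ac-CYB5R3–KO heart, and 3 ac-CYB5R3–KO hearts lay below every ac-WT heart. Means were 241 ± 249 and 71.2 ± 35.9 CPM (SD, n = 6 each), with a log2 fold change of -1.76 and an SE of 0.58 (edgeR, adjusted p = 0.214). The unadjusted p was 0.00939 by edgeR and 0.0693 by the exact permutation test. Without ac-WT heart 2, the highest, the log2 fold change was -1.02 (edgeR, adjusted p = 0.464). Without ac-WT hearts 2 and 3 it was -0.54 (edgeR, adjusted p = 0.810).

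Those 2 hearts stood apart in more than Malat1. Their normalization factors were 0.570 and 0.723, against 0.988 to 1.22 in the other 10 hearts, and mitochondrial genes took 35.3% and 34.8% of their reads, against 24.0% to 30.1%. The 8 cardiomyocyte markers summed to 35196 and 31561 CPM in them and to 13868 to 24632 CPM in the others. The 7 fibroblast markers, all detected, summed to 1428 and 1462 CPM, against 3682 to 7048 CPM. The 6 macrophage markers summed to 353 and 387 CPM, against 551 to 1491 CPM. The part of these differences in the fold change of Malat1 was not tested. In whole-heart RNA, fewer cells of a type and less RNA per cell cannot be told apart.

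**Figure D2:**
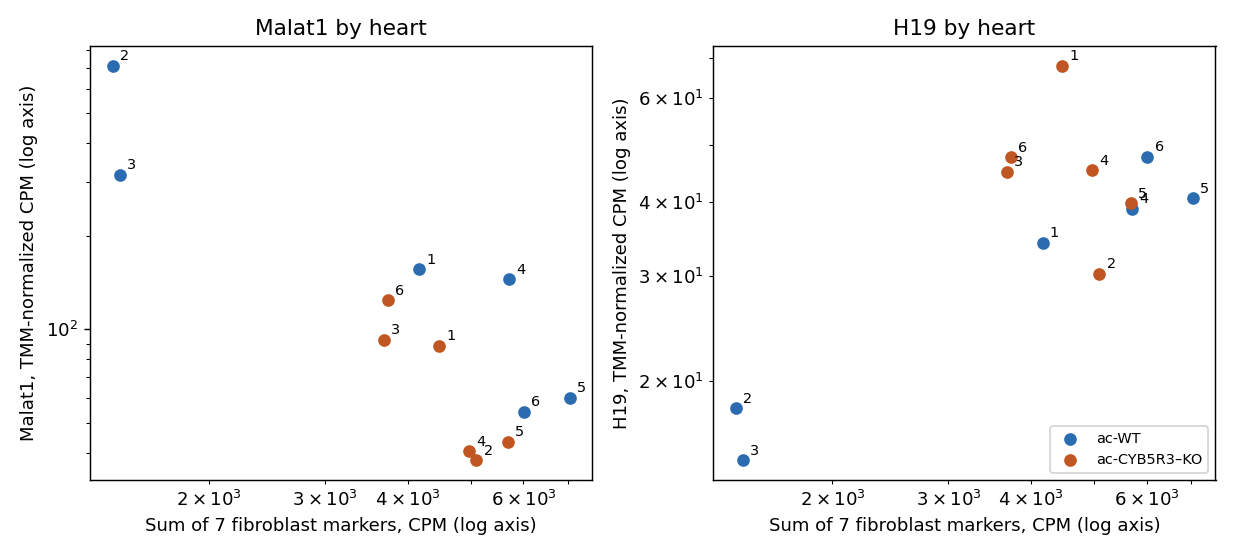
Malat1 (left) and H19 (right) in TMM-normalized CPM against the summed CPM of 7 fibroblast markers, both on log axes, with 1 point per heart, ac-WT in blue, ac-CYB5R3–KO in orange and the heart number beside each point. The ac-WT hearts 2 and 3, at 1428 and 1462 CPM of fibroblast markers, have the highest Malat1 (712 and 316 CPM) and the lowest H19 (18.0 and 14.7 CPM) of the 12 hearts.

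H19 was lowest in the same 2 ac-WT hearts in which Malat1 was highest. It was at 34.2, 18.0, 14.7, 39.0, 40.7 and 47.7 CPM in ac-WT hearts 1 to 6 and at 68.0, 30.3, 45.0, 45.3, 39.9 and 47.6 CPM in ac-CYB5R3–KO hearts 1 to 6. The groups overlapped, with ac-CYB5R3–KO heart 1 above and ac-WT hearts 2 and 3 below all hearts of the other group. The means of 32.4 ± 13.2 and 46.01 ± 12.4 CPM (SD, n = 6 each) gave a log2 fold change of 0.51 with an SE of 0.27 (edgeR, adjusted p = 0.408) and an exact permutation p of 0.113. Without ac-WT hearts 2 and 3 the fold change was 0.20 (edgeR, adjusted p = 0.855).

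Over the 12 hearts, within genotype, H19 went with the macrophage markers (median r of 6 genes 0.83, led by Adgre1, the F4/80 antigen, at 0.92) and the fibroblast markers (median r of 7 genes 0.71), beside a median of -0.086 for all 9938 genes. Malat1 went against the fibroblast markers (median r -0.88). Without ac-WT hearts 2 and 3 the median r of H19 with fibroblast markers was -0.039 and with macrophage markers 0.51, while that of Malat1 with fibroblast markers was -0.77. The genes most like H19 were Ssr1 (0.97), a subunit of the translocon-associated complex, Ywhab (0.96) and Actr2 (0.96), and these values were 0.97 to 0.98 with total counts, when the median of all genes was 0.74. For Malat1 they were Smarce1 (0.96), Pdgfa (0.96) and Zfp945 (0.94). With total counts these became -0.38, 0.56 and 0.070, beside a median of -0.58 for all genes with Malat1. In the same scaling the median r of H19 was 0.91 with macrophage and 0.86 with fibroblast markers, and that of Malat1 with fibroblast markers -0.78. All these are correlations across 12 hearts that share library and scaling, given as a description.

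Igf2, the growth factor whose enhancers H19 shares, was close to silent, with 1 to 14 reads per heart, and fell under the filter on low counts. The ratio of H19 to Igf2 reads spanned 44.1 to 331 in ac-WT hearts. After deletion it spanned 190 to 1761, the highest resting on 1 Igf2 read (95% exact Poisson interval of that ratio 316 to 69556, counting error only). Its log2 difference of 1.37 did not pass the exact permutation test (p = 0.0584, adjusted 0.0823 over the 2 planned ratios that could be computed). It was 0.74 without ac-WT hearts 2 and 3 (exact permutation p = 0.305). H19 and Igf2 levels had a Pearson r of -0.22 over 12 hearts (permutation p = 0.464) and a Spearman rho of -0.035 (permutation p = 0.920).

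Among 9 tested genes of the Igf2-H19 and Kcnq1ot1 domains, Cdkn1c, a maternally expressed inhibitor of the cell cycle that Kcnq1ot1 silences on the paternal chromosome, was lower. Its range was 7.57 to 18.7 CPM in ac-WT hearts and 5.20 to 8.72 CPM after deletion, with overlap. The log2 fold change was -0.79 (edgeR adjusted p = 0.184, exact permutation p = 0.0173), and -0.49 without ac-WT hearts 2 and 3. By DESeq2, 1 of the 9 genes passed an adjusted p under 0.05, lower, beside 2.45% of all genes. With total counts 0 of the 9 passed p under 0.01 by edgeR. Osbpl5, a lipid transfer protein of the same domain, was at 11.4 ± 1.499 and 13.9 ± 1.05 CPM (0.28, edgeR adjusted p = 0.244). Of 23 other imprinted genes tested, 2 passed p under 0.01, both lower: Commd1, a copper-handling protein, at 42.7 ± 14.9 against 27.9 ± 1.16 CPM (-0.61, edgeR adjusted p = 0.186), and Zim1, a zinc finger gene, at 0.753 ± 0.322 against 0.366 ± 0.105 CPM (-1.02, adjusted p = 0.184). Commd1 had no overlap between groups (exact permutation p = 0.00216), and Zim1 overlapped between 0.491 and 0.507 CPM (exact permutation p = 0.00433). The same fits without ac-WT hearts 2 and 3 gave -0.29 and -0.65. At p under 0.05 by edgeR, 5 of the 23 genes were higher and 3 lower. With total counts, 1 was higher and 0 were lower at p under 0.01. Without ac-WT hearts 2 and 3, 1 of 24 tested was higher and 1 lower at that threshold. Over all genes 1.33% were higher and 3.27% lower at p under 0.01 with every heart in the fit.

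Neat1 and Meg3 showed no difference by genotype beyond their spread, and both swung widely from heart to heart. Neat1 was at 529, 708, 1855, 1523, 191 and 420 CPM in ac-WT hearts 1 to 6 and at 950, 160, 1142, 267, 357 and 1230 CPM in ac-CYB5R3–KO hearts 1 to 6. High and low hearts stood side by side in each genotype, and 1 ac-CYB5R3–KO heart lay below and 2 ac-WT hearts above the range of the other group. The means were 871 ± 664 and 684 ± 476 CPM (SD, n = 6 each), with a log2 fold change of -0.35 (0.030 with total counts), an SE of 0.58 and an edgeR adjusted p of 0.801. The exact permutation p was 0.628.

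Meg3 was at 15.9, 11.5, 26.1, 25.9, 7.06 and 6.45 CPM in ac-WT hearts 1 to 6 and at 21.5, 5.38, 28.6, 6.71, 9.28 and 17.3 CPM in ac-CYB5R3–KO hearts 1 to 6. High and low hearts again occurred in both groups. Its means were 15.5 ± 8.83 and 14.8 ± 9.22 CPM (SD, n = 6 each), with a log2 fold change of -0.067 (0.27 with total counts), an SE of 0.45 and an edgeR adjusted p of 0.956. The exact permutation p was 0.820. The SD of log2 Neat1 was 1.22 and 1.24 in the 2 groups and that of Meg3 0.88 and 0.96. Between 95.9% and 99.5% of genes within 2-fold of their levels had a smaller SD.

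The swings of Neat1 and Meg3 coincided. Over the 12 hearts their log2 levels had a Pearson r of 0.93 (permutation p = 0.00011) and a Spearman rho of 0.89 (permutation p = 0.00028), a pair examined after its values had been seen (adjusted over 3 pairs, permutation p = 0.00033 for r). The r was 0.90 within ac-WT hearts (permutation p = 0.0292), 0.96 within ac-CYB5R3–KO hearts (permutation p = 0.0111), 0.91 with total counts and 0.90 without the 2 hearts farthest from the median of Neat1. The ratio of Meg3 to Neat1 reads, which needs no scaling between libraries, was 0.0141 to 0.0370 in ac-WT and 0.0140 to 0.0336 in ac-CYB5R3–KO hearts (exact permutation p of the difference 0.426). Meg3 and Neat1 lie on chromosomes 12 and 19.

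**Figure D3:**
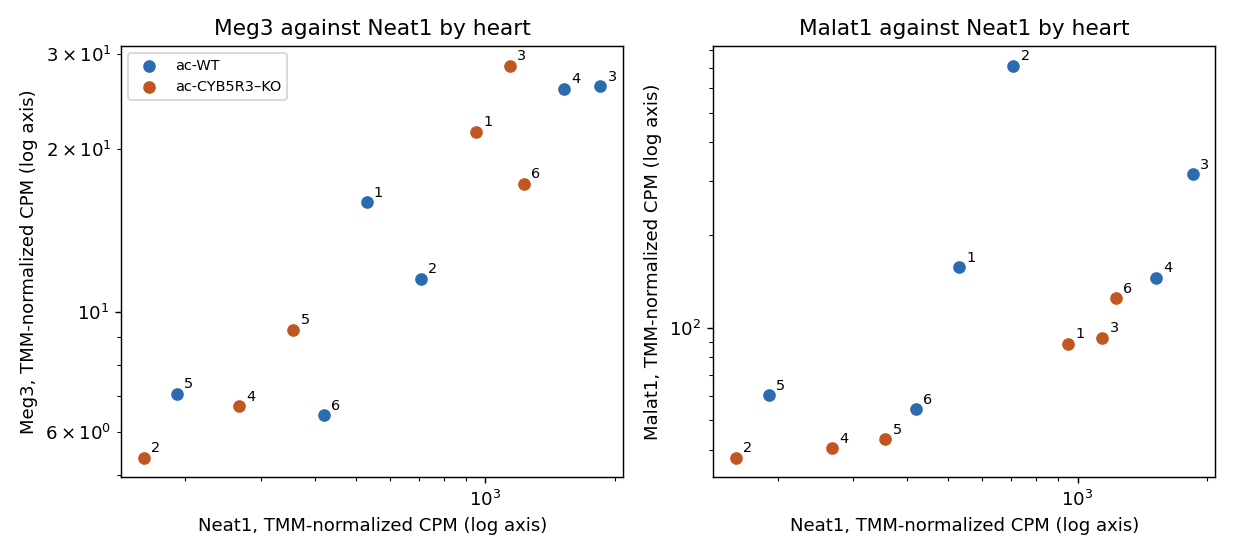
Meg3 (left) and Malat1 (right) against Neat1, in TMM-normalized CPM on log axes, with 1 point per heart, ac-WT in blue, ac-CYB5R3–KO in orange and the heart number beside each point. Meg3 follows Neat1 in both genotypes (r = 0.93), while the ac-WT heart 2 stands off the line of Malat1 against Neat1 (r = 0.65).

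Malat1 and Neat1, neighbours on chromosome 19, had a Pearson r of 0.65 (permutation p = 0.0207, adjusted 0.0311) and a Spearman rho of 0.76 (permutation p = 0.00640, adjusted 0.00960) over 12 hearts. The adjustment is over the 3 pairs computed. Within ac-WT hearts r was 0.59 (permutation p = 0.222) and within ac-CYB5R3–KO hearts 0.96 (permutation p = 0.0181), so the relation did not pass within ac-WT. Without ac-WT hearts 2 and 3, which are also the 2 hearts farthest from the median of Malat1, r was 0.80 (permutation p = 0.00944). There were 0.995 to 10.5 reads of Neat1 per read of Malat1 in ac-WT hearts (median 4.62) and 4.24 to 12.3 in ac-CYB5R3–KO hearts (median 9.05), a log2 difference of 0.98 that did not pass (exact permutation p = 0.0823, adjusted 0.0823). It was 0.59 without ac-WT hearts 2 and 3 (exact permutation p = 0.210).

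In ac-CYB5R3–KO hearts, hearts 1, 3 and 6 were the highest in Neat1, Meg3 and Malat1 alike. The red blood cell markers, of which 3 of 5 matched, none of them at 0, summed to 4204, 12222 and 6717 CPM in these hearts and to 1322, 2385 and 2056 CPM in hearts 2, 4 and 5. In ac-WT hearts the sum was highest, at 4483 CPM, in heart 2. That heart ranked 3rd of 6 in Neat1, had Meg3 at 11.5 CPM and had the highest Malat1 of the 12 hearts (712 CPM). The part of blood in these levels was not tested.

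The mRNAs of nuclear speckle proteins, the splicing factors and kinases of the bodies next to which Neat1 assembles, followed Neat1 and Meg3 from heart to heart. Of 19 such genes of at least 5 CPM, 18 had a positive r with Neat1 and 18 with Meg3 after the genotype means were subtracted. The median r was 0.86 with Neat1 and 0.87 with Meg3, against -0.066 and -0.095 for all 9938 genes. Srsf11 (0.88 and 0.95), Srsf6 (0.91 and 0.93) and Snrnp70 (0.92 and 0.92), all splicing factors, and Clk1 (0.87 and 0.92), a kinase of such factors, were among them, while Prpf8, a core protein of the spliceosome, ran the other way. With total counts the medians were 0.77 and 0.86, beside -0.068 and 0.089 for all genes. Within ac-WT hearts they were 0.84 and 0.86, within ac-CYB5R3–KO hearts 0.92 and 0.97. Malat1 had a median of 0.65 with these genes (0.15 with total counts, when all genes stood at -0.58) and Gas5 of 0.041. That of H19 was -0.37, with -0.71 within ac-WT and 0.66 within ac-CYB5R3–KO hearts. The median was 0.84 for Malat1 and 0.42 for Gas5 without ac-WT hearts 2 and 3, beside -0.11 and 0.0038 for all genes. These are descriptions over 12 hearts, and the genes of a list are not independent of each other.

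**Figure D4:**
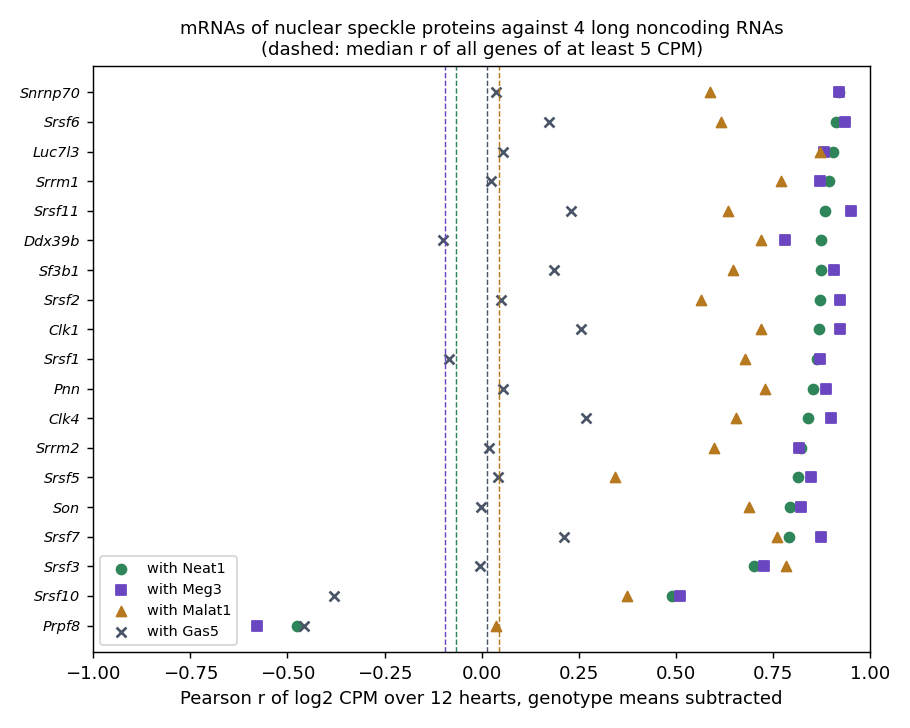
Pearson r of log2 CPM over 12 hearts, after the mean of each genotype was subtracted, between each of 19 mRNAs of nuclear speckle proteins and Neat1 (circles), Meg3 (squares), Malat1 (triangles) and Gas5 (crosses), with dashed lines at the median r of all genes of at least 5 CPM. Circles and squares lie mostly between 0.7 and 0.95, with Prpf8 below 0 for both, and crosses scatter around 0.

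Paraspeckle proteins, the direct partners of Neat1, followed it less closely, and the difference between the lists was not tested. Of 18, 12 had a positive r with Neat1, with a median of 0.38. Nono, 1 of the core paraspeckle proteins, had an r of -0.55. Among the genes most like Neat1 in the whole table were Malt1 (0.96) and BC037034 (0.95). Those most like Meg3 were Arrdc1 (0.97), Cspp1 (0.97) and Zc3h7a (0.97), a binder of microRNA precursors. None of these 5 differed by genotype at p under 0.05.

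By genotype neither list gave a call. Of 20 nuclear speckle and 18 paraspeckle proteins tested, 0 passed p under 0.05 by edgeR and 0 by DESeq2. The speckle proteins had 18 of 20 fold changes below 0, with a median of -0.19 beside -0.0074 for all genes. Without ac-WT hearts 2 and 3, 9 of 20 were below 0, with a median of 0.013. With total counts 4 of 20 were below 0 and the median was 0.12, beside 0.26 for all genes. The smallest p values were those of Son, a large scaffold of the speckles, at 128 ± 64.5 and 92.2 ± 20.3 CPM (-0.47, edgeR adjusted p = 0.421), and Srrm1, a coactivator of splicing, at 60.1 ± 38.9 and 39.7 ± 13.7 CPM (-0.60, adjusted p = 0.453). Among paraspeckle proteins they were those of Hnrnph3 (-0.35, edgeR adjusted p = 0.396) and Taf15 (0.24, adjusted p = 0.425).

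Of the protein-coding neighbours of Meg3, only Dio3, the enzyme that inactivates thyroid hormone, was tested, at 1.15 ± 0.992 and 2.06 ± 0.919 CPM (log2 fold change 0.81, edgeR adjusted p = 0.530). Dlk1 and Rtl1 had 20 and 67 reads over all 12 hearts. Over all 17847 genes 820 passed p under 0.01 by edgeR and 1238 by DESeq2. Of 7 other long noncoding RNAs tested, 0 passed it by edgeR and 1 by DESeq2. It was Dnm3os, the host of the microRNAs miR-199a and miR-214, at 4.25 ± 1.82 and 7.58 ± 3.02 CPM (0.82, edgeR adjusted p = 0.258), and 0.57 without ac-WT hearts 2 and 3. Oip5os1, known as cyrano, was at 137 ± 25.9 and 121 ± 8.77 CPM (-0.18, edgeR adjusted p = 0.504), and Tug1 at 35.3 ± 5.67 and 34.7 ± 2.79 CPM (-0.024, adjusted p = 0.931). Both had fold changes above 0 with total counts.

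**Figure D5:**
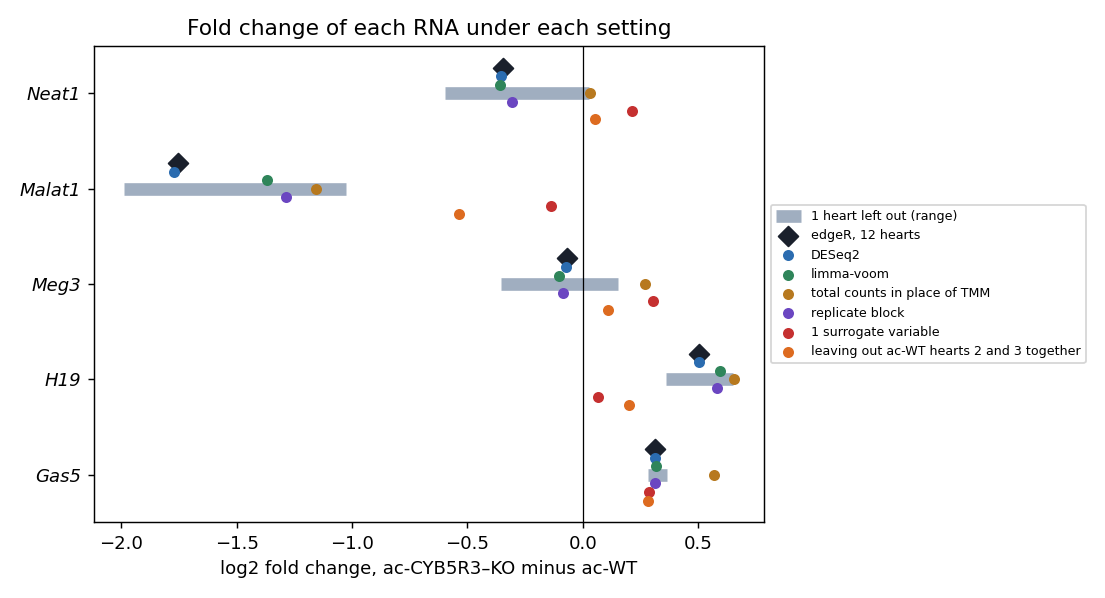
Log2 fold change, ac-CYB5R3–KO minus ac-WT, of each matched RNA under each setting: the edgeR fit of 12 hearts (diamonds), other tools, scalings and designs (coloured points) and the range over fits that leave out 1 heart (grey bars). Gas5 stays between 0.28 and 0.57, Malat1 moves between -1.99 and -0.14, H19 between 0.07 and 0.65, and Neat1 and Meg3 cross 0.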

How the data were processed

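The authors isolated total RNA from heart tissue, prepared TruSeq Stranded Total RNA libraries, sequenced unpaired 75 bp reads and mapped them with STAR. The study's methods name mm9, whereas the submitters' processing notes name GRCm39 and featureCounts, and 42.2% of the gene identifiers are absent from the NCBIM37 (mm9) annotation used here for coordinates and lengths. The deposited values are raw counts, a whole number for each of 53700 genes in each library, with 0 columns unused.

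Counts were filtered (filterByExpr, minimum count 10), TMM-normalized and fitted with edgeR 4.0.16 (R 4.3.3), whose two-sided quasi-likelihood test was run over 17847 genes with Benjamini-Hochberg adjustment and no covariate. DESeq2 1.42.0, limma 3.58.1 and sva 3.50.0 served as alternatives. The code was tested on simulated data. Single RNAs, ratios and correlations (100000 resamples, or all orders within a genotype) were compared by permutation on log2(CPM + 0.1), over 924 splits for a difference, whose smallest p is 0.00216. Library totals were between 43393183 and 53754284 per library and the biological coefficient of variation was 26.5%, so the spread between mice limits precision more than depth does. Intervals cover counting error only. Each heart is labelled as a separate sample, and p-values measure the spread between these hearts.

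The RNAs and gene lists were chosen with earlier results of these data known. Genes named from a list were those with p under 0.01, otherwise the 2 with the smallest p, and for each RNA the 3 genes with the highest r, of which 1 is not reported here. Tug1, Adgre1, Nono, Prpf8 and the speckle genes named for their r were chosen after their values were seen. Planned ratios and correlations with Rian, Mirg, Snhg1 and Kcnq1ot1 were not computed.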

Additional observations from a re-analysis of the deposited data

How the results depend on the processing

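Gas5 kept its direction under all 21 alternatives (log2 fold change 0.28 to 0.57, adjusted p 0.0312 to 0.538), and passed the adjusted threshold only with DESeq2 (0.31). Malat1 stayed below 0 (-1.99 to -0.14, adjusted p 0.0994 to 0.967) and H19 above 0 (0.07 to 0.65, adjusted p 0.235 to 0.963), the values nearest 0 coming with 1 surrogate variable. With total counts in place of TMM, the all-gene median went from -0.0074 to 0.26, and the genes at p under 0.01 went from 237 higher and 583 lower to 285 and 141. Relative to that shift Gas5 was 0.32, Malat1 -1.41, H19 0.40, Neat1 -0.23 and Meg3 0.012.

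Neat1 turned to 0.030 with total counts, 0.21 with 1 surrogate variable and 0.052 without ac-WT hearts 2 and 3, an alternative chosen after seeing the data. Meg3 turned to 0.27, 0.31 and 0.11 in the same order, and its difference of mean log2 CPM to 0.19 with total counts. With 1 heart left out, Neat1 ran from -0.60 to 0.028, Meg3 from -0.36 to 0.15 (mean difference -0.35 to 0.13), the Neat1 to Malat1 log2 ratio from 0.57 to 1.25 (exact p 0.0281 to 0.171, under 0.05 without ac-WT heart 4 or ac-CYB5R3–KO heart 2) and the H19 to Igf2 log2 ratio from 0.92 to 1.60 (exact p 0.0368 to 0.128, under 0.05 without ac-WT heart 5 or ac-CYB5R3–KO heart 3 or 6). The exact permutation p of Malat1 was 0.0303 to 0.134, and under 0.05 without ac-WT heart 5 or 6. Fold changes of Malat1 ran from -1.99 to -1.02, of H19 from 0.36 to 0.65 and of Gas5 from 0.28 to 0.36. The r of Malat1 with Neat1 was 0.54 with total counts (permutation p = 0.0702) and 0.59 within ac-WT. That of H19 with Igf2 turned to 0.12 with total counts, 0.56 within ac-CYB5R3–KO hearts, and 0.40 both without the 2 farthest hearts and without ac-WT hearts 2 and 3, which are the same hearts. The cause was not tested.

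The number of the 5 RNAs at p under 0.01 was 2, and 1 with limma-voom and with total counts, 0 with 1 surrogate variable, 0 without ac-WT hearts 2 and 3, and 0 to 2 with 1 heart left out. Gas5 missed p under 0.01 without ac-WT heart 5 or 6 or ac-CYB5R3–KO heart 1, 3 or 5 (edgeR, 5 of 12 fits). Malat1 kept it only without ac-WT heart 4, 5 or 6 or ac-CYB5R3–KO heart 6 (4 of 12 fits). Over all genes the calls at an adjusted p under 0.05 ran from 2 to 437 (18 in the fit reported, 437 with DESeq2).

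Hearts of the 2 groups share replicate numbers. Same-numbered hearts had a mean r of deviations of 0.12 (-0.20 to 0.37), against -0.022 for other pairs, and 2 of 6 correlated best with their own number, so the numbers were not taken as pairs. With a replicate block 0 of the 5 RNAs passed p under 0.01, and 2 genes in all passed the adjusted threshold. The ratios of Rian and Mirg to Meg3, Snhg1 to Gas5 and Kcnq1ot1 to Cdkn1c, and the correlations of Meg3, Rian and Mirg with each other and of Gas5 with Snhg1, were not run. Depth limits the ratio to Igf2, which had 1 to 14 reads per heart.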
